A study of Drosophila melanogaster with 3 samples.

Results

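Deep intronic Stripe peaks are the ChIP-seq peaks whose summits lie inside a gene but far from the promoters of protein-coding genes. They were taken from the authors' conservative list of thresholded peaks, deposited for the series as a whole, and a peak was kept when its summit lay inside an annotated gene body, in no annotated exon, and more than 5000 bp from every transcription start site (TSS) of protein-coding genes. Of 4041 peaks on the chromosome arms, 620 met this rule, 15.3% (Wilson 95% interval 14.3 to 16.5). With start sites of genes of any biotype in the rule, 529 peaks met it. The study has a single group of 3 biological replicates: whole embryos of Drosophila melanogaster aged 8 to 24 hours, from the transgenic strain labelled sr-GFP, with eGFP fused to Stripe, the product of the gene sr. The labels describe immunoprecipitation of the fusion with anti-GFP, while their antibody entry reads sr. All replicates carried the tagged protein, there was no second genotype, stage or tissue, and tissues were not separated. All 4041 peaks were in a joint ranked list of 99470 peaks. Of these, 59250 had a first interval that matched replicate 1 and 58472 a second interval that matched replicate 3. No interval matched replicate 2. The match is partial, and no label states how the conservative list was made. Because tissues were not separated, a strong site in few cells and a weak site in many cells cannot be told apart in any value below. Applied to each library's own thresholded list, the same rule kept 401, 258 and 463 peaks in replicates 1, 2 and 3, which was 15.1% ± 0.466 (SD, n = 3) of a list.

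Stripe is a zinc finger transcription factor of the EGR family. In the embryo it directs epidermal cells at the segment borders to become tendon cells, to which the somatic muscles attach. EGR zinc fingers read a short G-rich site, and the core searched here was GTGGGYG on either strand, where Y is C or T. Long introns of Drosophila genes are known to hold enhancers, stretches of DNA that act on promoters from a distance. Whether any of the peaks below acts as an enhancer was not measured.

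The sequences at 10 of the peaks show what the summits held. Each is the dm6 (Release 6) reference on the plus strand, 5′ to 3′, with EGR cores in capitals; a core on the reverse strand reads CACCCAC or CGCCCAC. The first 5 are from the 20 strongest peaks and hold 1 or 2 cores. The Myo31DF sequence shows cores directly beside a CA repeat. The next pair are the only 2 of the 20 strongest without a core within 100 bp. The last pair, shown over a wider window, held the most cores of all deep intronic peaks.
gukh (chr3R:19014179-19014299): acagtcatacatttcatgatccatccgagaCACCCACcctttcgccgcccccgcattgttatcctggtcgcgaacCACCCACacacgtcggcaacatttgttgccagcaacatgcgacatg
CG32486 (chr3L:3060699-3060819): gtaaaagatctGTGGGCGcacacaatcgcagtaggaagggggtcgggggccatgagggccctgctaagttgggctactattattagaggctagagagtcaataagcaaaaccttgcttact
Shab (chr3L:2909648-2909768): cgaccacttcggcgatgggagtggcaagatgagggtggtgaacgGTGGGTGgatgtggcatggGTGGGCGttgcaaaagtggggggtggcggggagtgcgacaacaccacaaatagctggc
if (chrX:16766957-16767077): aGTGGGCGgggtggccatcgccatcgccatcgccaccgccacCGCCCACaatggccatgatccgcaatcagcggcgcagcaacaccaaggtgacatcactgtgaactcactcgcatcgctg
Mnt (chrX:3677634-3677754): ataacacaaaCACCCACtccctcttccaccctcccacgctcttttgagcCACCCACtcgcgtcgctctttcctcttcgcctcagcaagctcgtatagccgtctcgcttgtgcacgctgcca
Myo31DF (chr2L:10499781-10499901): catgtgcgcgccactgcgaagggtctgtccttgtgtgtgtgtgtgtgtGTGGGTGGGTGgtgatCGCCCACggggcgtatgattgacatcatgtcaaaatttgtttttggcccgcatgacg
sr (chr3R:18107729-18107849): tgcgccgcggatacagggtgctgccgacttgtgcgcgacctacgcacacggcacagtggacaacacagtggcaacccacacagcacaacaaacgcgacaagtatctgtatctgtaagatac
CG1677 (chrX:7300033-7300153): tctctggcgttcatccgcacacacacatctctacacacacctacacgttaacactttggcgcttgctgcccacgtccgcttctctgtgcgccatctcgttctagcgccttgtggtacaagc
kek5 (chrX:19401755-19401955): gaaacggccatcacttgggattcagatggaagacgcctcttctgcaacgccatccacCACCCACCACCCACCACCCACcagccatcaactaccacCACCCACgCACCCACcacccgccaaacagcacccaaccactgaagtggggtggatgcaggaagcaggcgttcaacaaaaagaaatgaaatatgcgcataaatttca
CG33298 (chr2L:9510680-9510880): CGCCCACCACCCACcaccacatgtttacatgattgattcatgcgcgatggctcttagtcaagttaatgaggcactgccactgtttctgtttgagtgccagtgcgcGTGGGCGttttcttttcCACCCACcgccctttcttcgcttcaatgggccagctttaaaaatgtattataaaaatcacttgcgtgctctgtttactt

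The deep intronic peaks covered a wide range of distances and genes. The distance from summit to nearest protein-coding TSS ran from 5003 bp, in hlk, to 76696 bp, in the homeobox gene hth, with a median of 9459.5 bp and quartiles of 6820 and 14022.5 bp. The peak in hlk had a signal of 72.5, and the peak just outside the limit, 4991 bp from the TSS of bol, had 80.0. The median intron around a summit was 17454 bp long. The peaks lay in 342 annotated genes, 193 of which held 1 and 23 of which held 5 or more. Only 17 peaks had no protein-coding host gene. For 209 peaks (33.7%) the nearest protein-coding TSS belonged to a gene other than the host. Another deep intronic peak lay within 1000 bp of 150 of the 620 peaks (24.2%). Which gene a peak acts on, if any, was not measured.

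Introns were not filled evenly. The sequence that could hold such a peak, intron sequence more than 5000 bp from every protein-coding TSS, came to 28.2 Mb, 21.0% of the arms, and held 22.0 peaks per Mb. TSS-near introns, over 500 and up to 5000 bp from a TSS, held 49.8 per Mb, intergenic sequence 15.7 and promoters, within 500 bp of a TSS, 99.5. By arm the density of deep intronic peaks ranged from 20.7 per Mb on 2L to 24.0 on 3L. Chromosome 4, with 0.204 Mb of such sequence, had 0. The first intron of an annotated transcript held 325 of the 620 peaks, 52.4% (48.5 to 56.3), while first introns made up 32.2% of the sequence open to them. With only the longest transcript of each host gene the shares were 35.5% and 21.7%. These are descriptions of positions, without a test.

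The strongest deep intronic peak lay in gukh, whose product binds the scaffold protein Discs large at synapses. Its signal in the conservative list was 819, and the library values were 228 in replicate 1, 261 in replicate 2 and 335 in replicate 3. Signal is the authors' value per peak, in a unit the files do not state, and a library's value is that of the strongest peak in its ranked list within 100 bp of the summit. The second, in CG32486, had 225, 230 and 342. The third, in Shab, which encodes a voltage-gated potassium channel, had 198.5, 191 and 246. Replicate 3 was highest at all 3 of these sites. At the only deep intronic peak of if, replicate 1 was highest, with 256, 147 and 190.3. The gene if encodes an alpha subunit of integrin that muscles use to hold on to tendon cells. Of the 20 strongest peaks, all 20 had a thresholded peak in every library and 18 held the EGR core. Both shares rose with signal, by which the 20 were chosen. In the highest of 4 equal signal groups they were 89.03% and 59.4%, and over all deep intronic peaks 28.1% and 47.3%. Of all conservative peaks 37.7% held the core. The 20 lay 5054 to 14272 bp from a TSS, 10 of them in a first intron, and for 7 the nearest TSS was that of another gene.

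**Figure D1:**
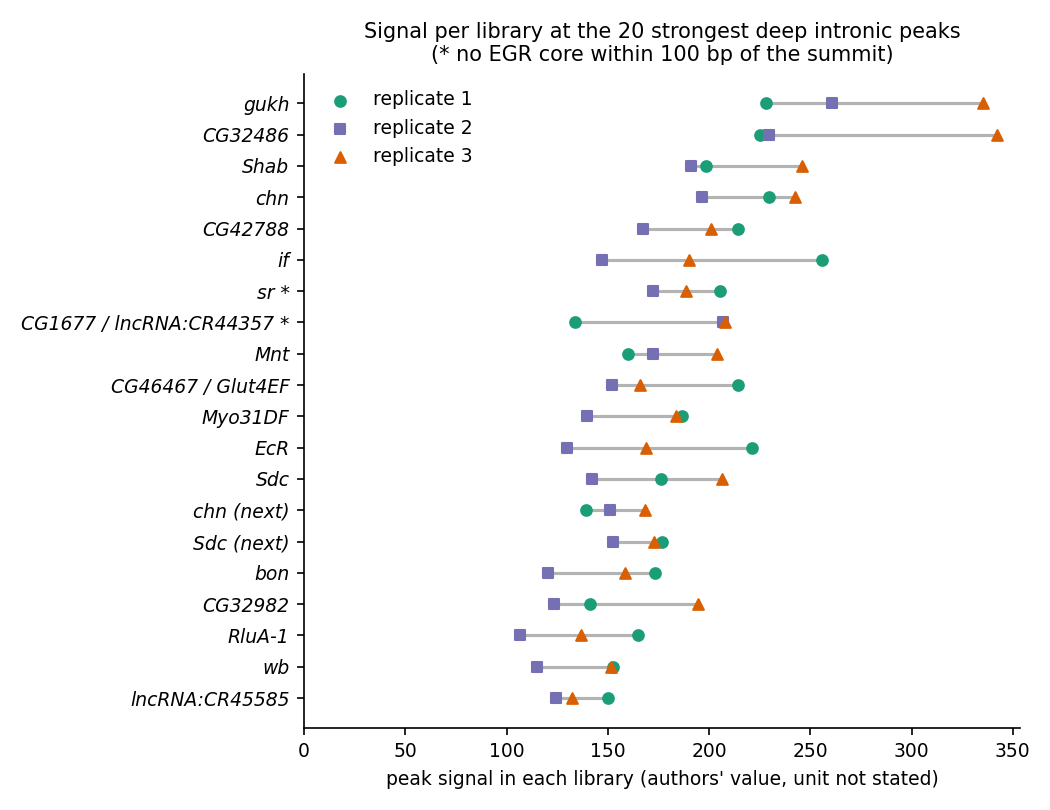
Signal in each library (horizontal axis, the authors' value) at the 20 deep intronic peaks with the highest signal in the conservative list, named by host gene and ordered by that signal; points are the 3 libraries and grey lines join the lowest and highest. At gukh and CG32486 replicate 3 stands apart, with 335 and 342, and at most of the other sites replicate 2 is the lowest.

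The zinc finger gene chn held 2 of the 20, 804 bp or more from their neighbours, and its stronger one had 230, 196.5 and 242 in replicates 1, 2 and 3. The site in Glut4EF, another regulator gene, had 214, 152 and 166 and held 3 cores. It is shared with CG46467, whose introns overlap those of Glut4EF. EcR, which encodes the ecdysone receptor, had 221, 130 and 169. The gene for Mnt, a bHLH partner of Max, had 159.8, 172 and 204, and that for the co-regulator Bonus (bon) had 173, 120.4 and 158. A site in the overlapping genes CG1677 and lncRNA:CR44357, whose nearest TSS is that of brk, a repressor of Dpp target genes, had 134, 207 and 208. It was one of the 2 without a core.

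Sdc, which encodes the heparan sulphate proteoglycan syndecan, held 2 of the 20, 495 bp apart, with 176, 142 and 206 at the stronger and 177, 152 and 173 at the weaker. In wb, which encodes a laminin alpha chain, the values were 152, 115.1 and 151. Myo31DF, the gene of an unconventional myosin that sets left-right asymmetry, had 187, 139.5 and 184. The remaining sites of the 20 were in CG42788, CG32982, RluA-1 and lncRNA:CR45585. Their signals in the conservative list were 598, 454.5, 426 and 414. At each site named in these paragraphs all libraries had a peak, and over the 20 sites the highest library value was at most 1.74 times the lowest.

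The gene of the tagged protein held 9 deep intronic peaks, none of them in a first intron, 7472 to 15547 bp from the nearest TSS. The strongest, at chr3R:18107661-18107919, had a signal of 549.5, with 205.5, 172 and 189 in replicates 1, 2 and 3. It is the sr sequence printed above, without a core. The next, summit 3R 18103071, had 75.5, 55.6 and 101 and held 1 core, and the one at 3R 18106350 had 85.9, 50.1 and 82.3 and also held 1. A peak at 3R 18104739 had 45.8, 41.9 and 47.5 and no core. These 4 had a thresholded peak in all libraries. The remaining 5 had signals from 12.51 to 118, 2 of them with the core. At 3R 18103555 only replicate 1 had a ranked peak within 100 bp, with 25.9. The labels describe an insertion that targets sr, and whether a tagged copy adds to the signal at this gene was not tested.

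Several genes held as many peaks as sr or more. Glut4EF, together with CG46467, had 10 peaks with signals from 3.72 to 536, and the weakest lay beside a stronger peak. The transcriptional regulator gene sbb had 10, with signals from 61.3 to 347.5, all in a first intron. The gene rdx, which encodes an adaptor that helps degrade the Hedgehog effector Ci, had 10, with signals from 55.1 to 212, of which 1 had a thresholded peak in every library. Hr4, which encodes a nuclear receptor, had 9, with signals from 84.95 to 278, of which 6 had one in every library. Per 10 kb of eligible intron sequence, sr held 3.94, rdx 2.93, Hr4 2.82, sbb 2.81 and Glut4EF 1.15. Among genes with 5 or more peaks, chn with 5 in 4726 bp and the inhibitory Smad gene Dad with 5 in 7597 bp were the densest, at 10.6 and 6.58 per 10 kb. These last 2 were chosen after their values were seen.

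**Figure D2:**
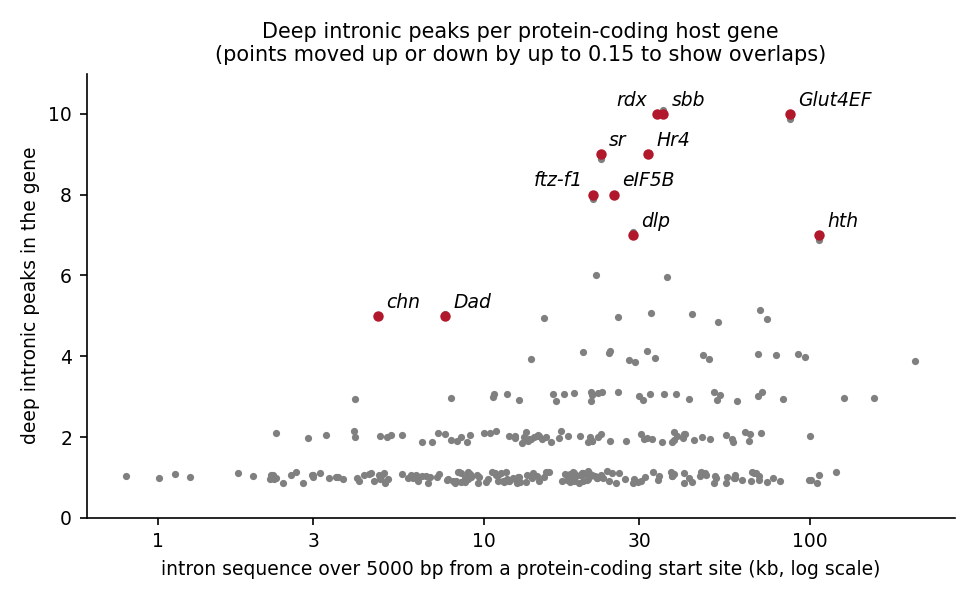
Deep intronic peaks per protein-coding gene (vertical axis) against the gene's intron sequence more than 5000 bp from a protein-coding TSS (horizontal axis, kb, log scale); each point is a gene with at least 1 peak. Glut4EF, sbb and rdx reach 10, while chn and Dad hold 5 in under 10 kb.

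A list of 18 genes linked to tendon cells and muscle attachment was chosen with earlier results of these data known. Of its 13 genes with eligible intron sequence, 8 held a deep intronic peak: if, sr, tkv, how, vn, mew, shot and Tsp. Over all protein-coding genes with eligible sequence the share was 17.7% (324 of 1830). The listed genes are also longer: their median eligible sequence was 18.4 kb, against 5.53 kb over all, and the share of all genes with a peak rose from 4.87% below 5 kb to 45.1% above 50 kb. The part of length in the count was not tested. In how, which encodes an RNA-binding protein of tendon and muscle, the strongest of 3 peaks had 84.7, 52.5 and 59.3 in replicates 1, 2 and 3. In vn, which encodes the neuregulin-like ligand Vein, the stronger of 2 had 52.8, 46.3 and 60.5. In mew, the gene of another integrin alpha subunit, the strongest of 3 had 52.2, 38.1 and 63.1. The spectraplakin gene shot and the thrombospondin gene Tsp had weaker sites, with signals in the conservative list up to 115.3 and 90.7. In the Dpp receptor gene tkv the values were 108, 2.02 and 91.2. The low value in replicate 2 is that of a small peak 72 bp from the summit, and a stronger one with a signal of 50.2 lay 128 bp away on the other side.

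The other gene lists gave counts as follows. Over all genes the share was 17.7%, and it depended on eligible length. It was 18.9% at 5 to 10 kb, 27.15% at 10 to 20 kb, 36.2% at 20 to 50 kb and 45.1% above 50 kb. The lists were chosen with earlier results of these data known, so the counts are descriptions without a test. Of ecdysone response and nuclear receptor genes 8 of 14 held a peak, with a median eligible length of 20.7 kb. After EcR the strongest sites were in Hr3, with 85.2, 98.6 and 160.4 in replicates 1, 2 and 3, and in Hr4, with 82.5, 101.5 and 95.2. The Hr3 site also lies in the overlapping genes CG12912 and CG46321. Of regulator genes 11 of 21 held one (20.1 kb). In hth the site farthest from a TSS of all 620 had 83.4, 93.8 and 97.2. In chinmo, a BTB zinc finger gene, the values were 88.1, 61.3 and 99.6. Of EGFR and FGF pathway genes 6 of 12 held one (7.78 kb), with the FGF gene bnl at 74.4, 35.9 and 48.2 and the receptor gene Egfr at 56.4, 28.6 and 74.2. Of segment border and guidance genes 5 of 12 held one (12.99 kb), among them ptc, the Hedgehog receptor gene, with 64.9, 66.1 and 55.9, and the slit gene sli, with 54.5, 15.5 and 38.7.

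Adhesion and axon guidance receptor genes held peaks in 8 of 15 cases, and their median eligible length, 53.6 kb, was the longest of the 8 lists. The strongest site was in the teneurin gene Ten-m, with 137, 119 and 145 in replicates 1, 2 and 3. That site also lies in lncRNA:CR45962. Integrin adhesion genes held them in 3 of 10 (1.65 kb) and muscle genes in 4 of 17 (9.10 kb). These shares were 53.3%, 30% and 23.5%. Over all genes the share was 17.7%, with 4.87% below 5 kb, 18.9% at 5 to 10 kb and 45.1% above 50 kb. Per 10 kb of eligible sequence, adhesion and guidance receptor genes held 0.165 peaks, integrin adhesion genes 0.661 and muscle genes 0.231. The value was 0.222 over all genes and 0.104 over genes above 50 kb. No test was made. The muscle genes with a peak were if, how and the immunoglobulin receptor genes kirre and rst of myoblast fusion. The only peak of rst lies in both rst and kirre, which overlap, and is counted for each. In kirre the strongest of 4 sites had 53.3, 54.4 and 47.1. The member of the integrin list beyond if and mew was Zasp52. Its site had 51.9 in replicate 1, 27.2 in replicate 3 and no ranked peak within 100 bp in replicate 2. The site also lies in tun, whose TSS is the nearest, and had a thresholded peak in replicate 1 only. Some genes are in more than 1 list.

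The EGR core was the leading sequence of these sites. Within 100 bp of the summit, 293 of the 620 deep intronic peaks held GTGGGYG, 47.3% (43.4 to 51.2). Windows of the same width 1000 bp to the right held it in 53 cases, 8.55% (6.60 to 11.0). It was found only at the summit in 271 peaks and in the flank alone in 31 (two-sided exact sign test, adjusted over 19 motifs, p = 9.86e-48). Sign and Fisher tests over peaks, here and below, take the peaks as independent. However, 150 of the 620 had another deep intronic peak within 1000 bp. In the libraries' own lists the shares at the summits were 50.6%, 53.5% and 44.7%, a mean of 49.6% ± 4.48 (SD, n = 3), against 8.17% ± 0.716 in flanks. The difference of 41.4 points ± 4.94 had the same sign in 3 of 3 libraries, and the exact sign-flip permutation test gave p = 0.25, the smallest that 3 libraries allow.

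In peaks with the core, the nearest one was a median of 19 bp from the summit, and 85.7% had one within 50 bp. Of the 393 cores, 186 lay on the forward strand, 47.3% (42.4 to 52.3). There were 78 peaks with 2 or more cores. The peak in kek5, which encodes a leucine-rich repeat and immunoglobulin protein, held 5, several of them side by side, with 49.3, 32.1 and 32.5 in replicates 1, 2 and 3. The one in CG33298 held 4, with 68.7, 37.4 and 62.55. Neither is among the 20 strongest.

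**Figure D3:**
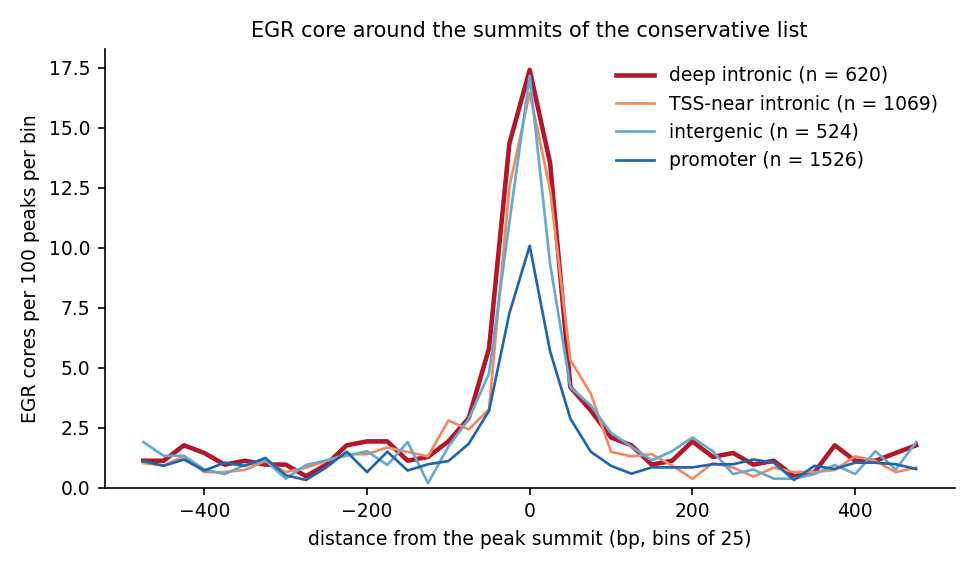
EGR cores per 100 peaks in bins of 25 bp (vertical axis) by distance from the summit (horizontal axis, bp) for 4 classes of the conservative list. The deep intronic line peaks at 17.4 at the summit and is near 1 to 2 beyond 100 bp, and the promoter line stays below it at the summit.

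Deep intronic peaks held the core more often than promoter peaks, but not more often than exonic ones. The share in exonic peaks outside promoters was 52.65% (159 of 302), and this class was not among the 3 tested. The promoter share was 26.7% (407 of 1526), a difference of 20.6 points (95% interval 16.1 to 25.1; Fisher's exact test, two-sided, adjusted over 57 comparisons of 19 motifs in 3 classes, p = 7.38e-18). The library lists gave a difference of 19.6 points ± 2.80 (SD, n = 3), positive in 3 of 3 (exact sign-flip permutation p = 0.25, the smallest possible). The share in intergenic peaks was 39.9%, lower by 7.37 points (1.60 to 13.1), which did not pass after adjustment (Fisher's exact test, p = 0.0142, adjusted p = 0.0899). The share in TSS-near intronic peaks was 42.6%, and the difference of 4.70 points (-0.217 to 9.60) did not pass (Fisher's exact test, adjusted p = 0.295). Both differences were positive in 3 of 3 library lists, at 8.70 ± 1.21 and 4.20 ± 0.314 points (SD, n = 3; exact sign-flip permutation p = 0.25 for each). With the C form GTGGGCG alone both passed, at 7.96 and 6.76 points (Fisher's exact tests, adjusted p = 0.0224 for each).

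Other motifs differed less. The CA repeat CACACAC was in 18.2% of deep intronic centres and 7.42% of flanks (adjusted p of the exact sign test 1.19e-07), and its share in TSS-near intronic, intergenic and promoter peaks was 18.8%, 19.1% and 18.2%. Within deep intronic peaks, 22.2% of those with the core and 14.7% of those without it held the repeat, against 5.12% and 9.48% in their flanks. The GATA motif WGATAR, where W is A or T and R is A or G, was rarer, with 23.9% at centres and 33.5% in flanks (adjusted p of the exact sign test 0.00127). GC content moved with these differences: its median was 46.8% at centres and 40.8% in flanks, higher at the centre in 414 peaks and lower in 195 (adjusted p of the exact sign test 1.26e-18). The part of base composition in the motif differences was not tested. The GAGA factor motif GAGAG was in 30% and 23.9% and did not pass (adjusted p of the exact sign test 0.0726). The EGR 9-mer GCGTGGGCG with up to 1 mismatch, which overlaps the core, was in 30.8% and 3.71% (adjusted p of the exact sign test 7.10e-36).

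The remaining 14 motifs of the panel did not pass against flanks. They were Zelda (CAGGTAG), AP-1 (TGANTCA), Grainy head (AACCGGTT), Mef2, Scalloped (GGAATG), Tinman (TNAAGTG), bHLH (CAGCTG), the Twist-type E-box (CACATG), Pleiohomeotic (GCCAT), DRE (TATCGATA), M1BP (GGTCACACT), ETS (CCGGAAGT), Su(H) (GTGGGAA) and the Runt domain (TGTGGTT). Against promoter peaks, DRE and M1BP, both promoter elements, were in 0% of deep intronic and in 4.46% and 2.88% of promoter peaks (Fisher's exact tests, adjusted p = 2.11e-09 and 1.04e-05). GAGAG was less frequent than in promoter peaks, 30% against 38.9% (Fisher's exact test, adjusted p = 8.67e-04), as was the bHLH motif, 8.23% against 15.0% (adjusted p = 1.68e-04). The Pleiohomeotic motif was more frequent, 37.7% against 30.3% (Fisher's exact test, adjusted p = 0.00764), and so was Mef2, with 9 peaks, 1.45% against 0.328% (Fisher's exact test, adjusted p = 0.0439). Against TSS-near intronic and intergenic peaks no motif of the panel passed.

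**Figure D4:**
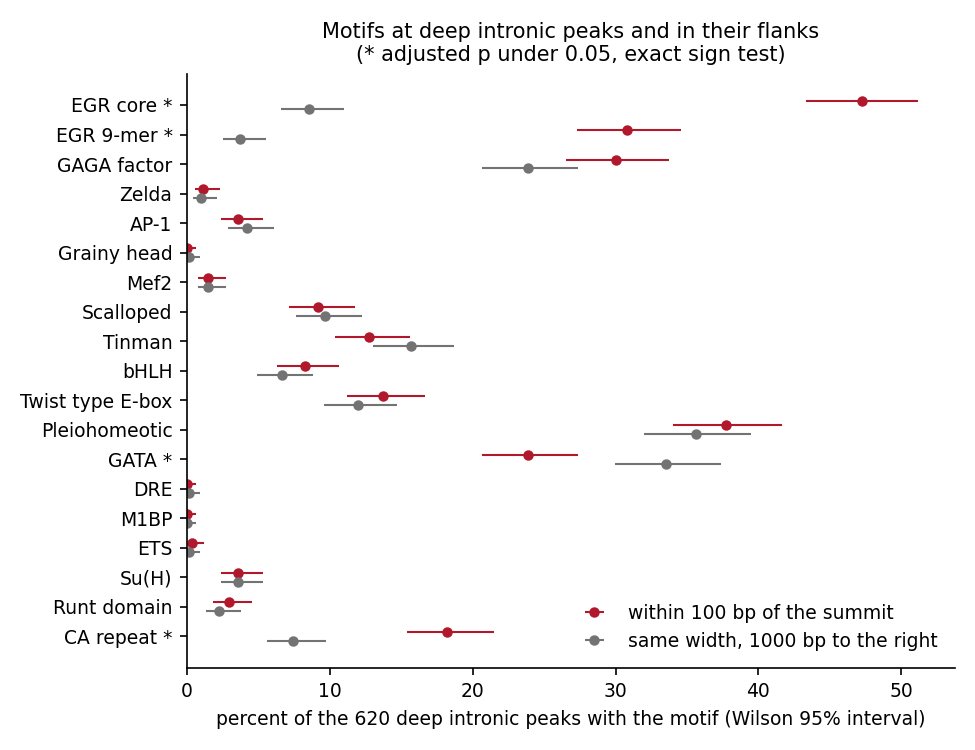
Share of the 620 deep intronic peaks with each of 19 motifs (horizontal axis, percent, with Wilson 95% intervals) within 100 bp of the summit (red) and in windows of the same width 1000 bp to the right (grey). The EGR core, the EGR 9-mer and the CA repeat lie to the right of their flanks and GATA to the left.

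All 7-mers were then screened without the panel. Of 8192 tested, 83 (1.01%) were more frequent at deep intronic centres and 25 (0.305%) in flanks (exact sign tests, adjusted p under 0.05). The leading one was CGCCCAC, the reverse complement of GTGGGCG, in 32.6% of centres and 3.23% of flanks (adjusted p of the exact sign test 6.68e-41). It was followed by CCCACGC, in 19.0% and 2.74%, and CCCACAC, in 19.8% and 4.03%. The 7-mers more frequent in flanks were led by AATTAAA, in 9.19% of centres and 18.1% of flanks (adjusted p of the exact sign test 7.56e-04).

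Of the 327 deep intronic peaks without a core, 3 of the 8192 7-mers (0.0366%) were more frequent at the centre. CCCACGC was in 15.3% of these centres and 2.14% of flanks (adjusted p = 1.49e-05, exact sign test). GTGGGCA was in 11.6% and 1.83% (adjusted p = 0.00121), and CGCCCCC in 13.8% and 3.06% (adjusted p = 0.0025, exact sign tests). CCCACGC, read on the other strand, is the first 7 letters of the EGR 9-mer; GTGGGCA and the reverse complement of CGCCCCC each differ from GTGGGCG by 1 letter. At least 1 of the 3 was in 111 of the 327 peaks (33.9%) and in 6.42% of their flanks, which is given without a test because the words were chosen on these peaks. The core or 1 of these words was in 404 of the 620 (65.2%), against 15.0% of flanks. The CG1677 sequence above holds GTGGGCA on the reverse strand, and the strongest sr sequence holds none of them.

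Most EGR cores in such introns were not within 100 bp of a deep intronic summit of the conservative list. Peaks of other classes and of other lists were not counted here. The eligible introns held 12287 cores, of which 395 (3.21%) had their middle within 100 bp of a deep intronic summit. The share was 4.17% for the C form (223 of 5347) and 2.48% for the T form (172 of 6940), and 13.2% (9.65 to 17.8) for the 265 that were part of a whole 9-mer GCGTGGGCG. Cores near a summit were compared with the rest by form and by the letters beside them, and 9 of 49 comparisons, adjusted together and with the form as one of them, passed. The C form made up 56.5% of cores near a summit and 43.1% of the others (Fisher's exact test, adjusted p = 2.72e-06). C stood directly before the core in 18.7% and 9.12%, and G stood before that in 47.8% and 33.9% (Fisher's exact tests, adjusted p = 3.31e-07 and 4.34e-07). On the far side, A at the fifth letter after the core was less frequent, 19.0% against 27.5% (Fisher's exact test, adjusted p = 0.00174). Cores under a shared summit are not independent.

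Replicate support was graded. A thresholded peak within 100 bp was found in 3 libraries for 174 of the 620 peaks, 28.1% (24.7 to 31.7), in 2 for 158, in 1 for 136 and in 0 for 152. By library, 361 of the 620 had one in replicate 1, 232 in replicate 2 and 381 in replicate 3. Replicate 2 had the shortest list of its own, 1678 peaks against 2751 and 3008, and gave none of the matched intervals, and the part of either in its lower count was not tested. Over all conservative peaks 28.7% had all 3. The deep intronic share differed from those of TSS-near intronic, intergenic and promoter peaks by -0.747, -2.66 and -0.507 points, with intervals of -5.14 to 3.77, -7.97 to 2.62 and -4.62 to 3.77 (Fisher's exact tests, adjusted p = 0.833 for each). A ranked peak, whether or not it passed the threshold, was present more often: the ranked lists held one at 593, 543 and 595 of the 620. Across peaks, which are not independent, Spearman's rho between library values was 0.653 for replicates 1 and 2, 0.645 for 1 and 3 and 0.667 for 2 and 3.

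Peaks with the core were supported more often. A thresholded peak was found in replicate 1 for 66.2% of peaks with the core and 51.1% of those without, a difference of 15.1 points (7.38 to 22.6; Fisher's exact test, adjusted over the libraries, p = 5.13e-04). In replicate 2 the shares were 44.0% and 31.5% (adjusted p = 0.00235), and in replicate 3 they were 64.2% and 59.0%, 5.14 points (-2.53 to 12.7), which did not pass (Fisher's exact test, adjusted p = 0.215). The median signal in the library was higher with the core in each, by 1.20, 1.18 and 1.07 times, a mean of 1.15 ± 0.067 (SD, n = 3; exact sign-flip permutation p = 0.25, the smallest possible). In the conservative list the median signal was 109 without a core, 127 with 1, 114.7 with 2 and 167.5 with 3 or more, the last from 19 peaks. In 4 equal groups of rising signal, the core was in 36.8%, 43.9%, 49.0% and 59.4% of peaks, and support by all libraries was 0%, 0.645%, 22.6% and 89.03%.

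Signal and core showed little relation to distance. The median signal of all deep intronic peaks was 115.3, with quartiles of 86.0 and 167, close to the 121, 114 and 112 of TSS-near intronic, intergenic and promoter peaks. Between 5000 and 7500 bp from a TSS the median was 116 and the core share 43.5% (36.9 to 50.3). From 7500 to 10000 bp they were 118 and 49.6% (41.3 to 58.0), from 10000 to 20000 bp 111 and 50.5% (43.7 to 57.3), and beyond 20000 bp 122 and 44.7% (34.1 to 55.9). The intervals overlap, and no test was made. The 3 peaks farthest from a TSS were the 2 in hth at 76696 and 76327 bp and 1 in lncRNA:CR46006 at 66782 bp, and the last had 52.7, 29.2 and 47.7 in replicates 1, 2 and 3.

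**Figure D5:**
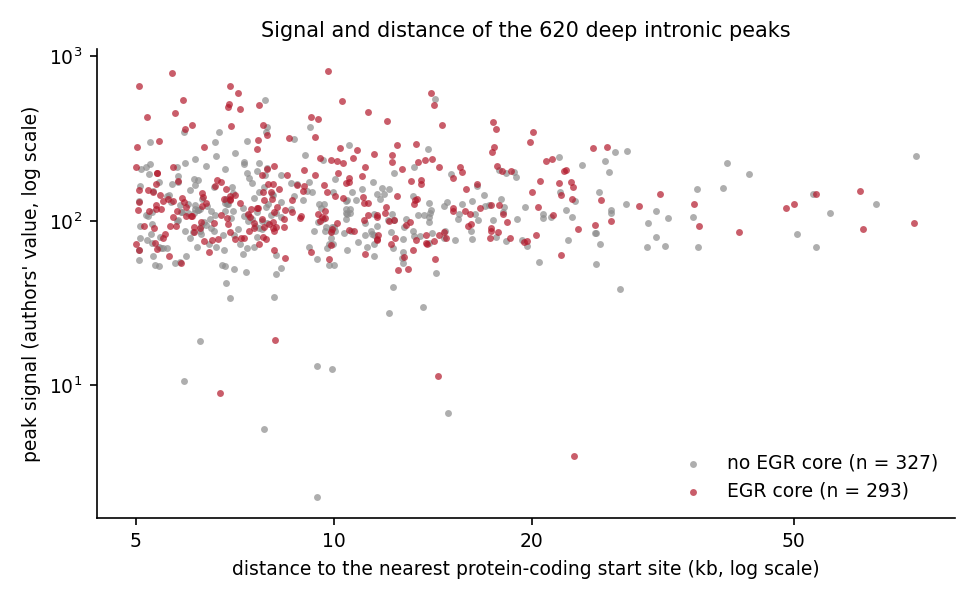
Signal in the conservative list (vertical axis, log scale) against distance to the nearest protein-coding TSS (horizontal axis, kb, log scale) for the 620 deep intronic peaks, with the EGR core (red) and without (grey). Peaks of both kinds span the whole range of distance, and 11 lie below a signal of 20.

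The weakest peaks lay beside stronger ones. Of the 11 with a signal under 20, which ran from 2.11 to 18.8, 10 had a stronger conservative peak 199 to 224 bp away and the last had one at 444 bp. The signals of these 11 neighbours ran from 65.0 to 503. In all, 17 deep intronic peaks were within 250 bp of a stronger peak, and 5 of these held the core.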

How the data were processed

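ChIP-seq peak lists from the 3 libraries were used as deposited, on dm6. Per the labels, chromatin was sonicated to 200 to 800 bp. The aligner is not given in the sources used here, nor is the peak caller. The authors filtered peaks by the irreproducible discovery rate (IDR). Peak signal is the authors' deposited value, with no stated normalization, and was used to describe and rank peaks. The deposited −log10 of the global IDR was used to check that every conservative peak on the arms had a value of 0.01 or less. The conservative list's peaks on the arms were all in 1 joint comparison. Its intervals matched replicates 1 and 3 in part and replicate 2 in none. No label states how the list was made. Read totals are not in the files used, so depth is unknown, and intervals cover counting error only. Nothing in the labels says that replicates came from separate crosses, so spreads may be technical.

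Summits were classed with the Ensembl release 115 annotation of Release 6, the same coordinates as dm6. Motifs were searched on both strands within 100 bp, with a window 1000 bp to the right as control. Python 3.11.15, NumPy 2.4.6, pandas 2.3.3 and SciPy 1.17.1 were used, with Benjamini-Hochberg adjustment at 0.05. The 7-mer screen was tested on simulated data. Deep intronic peaks, gene lists and motifs were chosen with earlier results of these data known. Genes named are the 20 strongest peaks, those in sr, the 6 genes with most peaks, up to 5 genes of each list, the peaks at the distance limit and those with the most cores. Alternatives covered the distance limit, start sites, lists, libraries, windows, flanks, motif forms and matching distance.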

Additional observations from a re-analysis of the deposited data

Results flagged for a closer look

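Deep intronic peaks of the authors' longest joint list that the conservative list lacks entered the comparisons above only as part of an alternative, and they also carried the EGR core. Of 784 deep intronic peaks in that list, 219 had no conservative summit within 100 bp. The core was in 77 of them, 35.2% (Wilson 95% interval 29.1 to 41.7), against 9.13% (5.99 to 13.7) of windows 1000 bp to the right. Their median signal was 68.5. The study has no sample without the tagged protein in the files used here. The flanks give only how often nearby windows hold the core, and peaks that would arise without the tag were not measured.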

How the results depend on the processing

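The EGR core was more frequent at the summits than in flanks under all 18 alternatives, by 27.1 to 52.9 points, and more frequent than in promoter peaks under all 15, by 9.64 to 22.5 points, each with an adjusted p under 0.05. Against intergenic peaks the difference passed with the 200 bp window (8.07 points, Fisher's exact test, adjusted p = 0.0428) and with GTGGGCG alone (7.96, Fisher's exact test, adjusted p = 0.0224), and against TSS-near intronic peaks with GTGGGCG alone (6.76, Fisher's exact test, adjusted p = 0.0224); no other alternative changed these calls. The deep intronic share of the list was 26.6% at a limit of 2000 bp, 6.93% at 10000 bp, 13.1% with start sites of any biotype and 15.96% in the second shortest joint list; without each replicate it ran from 15.0% to 15.95%. The share supported by all libraries was 22.2% in the longest joint list, 55.3% in the 50% with the highest signal, and 34.95% and 33.5% in the shortest and second shortest lists. The number of 7-mers higher at centres was 170 at 2000 bp, 22 at 10000 bp, 31 in the 50% with the highest signal, 55 in the second shortest list and 3 without the core, and 16 to 32 without each replicate, where fewer peaks were tested. The median signal was 101.5 in the longest list, 167 in the 50% with the highest signal, 129 in the shortest and 127 in the second shortest list, and 171 to 206 without each replicate, where peaks had to pass in both other libraries. The first intron share was 59.0% at 2000 bp, 47.9% at 10000 bp and 35.5% with the longest transcript, and 45.6% to 50.7% without each replicate. The 2 shortest lists, the omission of peaks beside stronger ones, peaks without the core and flanks free of exons and other peaks were chosen after seeing the data. No paired analysis was possible because the study has a single group. Depth is unknown, so no lower limit of detection can be given.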
